A study of Mus musculus with 59 samples.

Results

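The genes described here are 8 transcripts that mark inhibitory interneurons or shape how these cells form: Lhx6, Sox6, Satb1, Pvalb, Nxph1, Erbb4, Adarb2 and Reln. They were taken by symbol from the deposited table of raw counts, in which each has 1 row among 57180 gene rows, and were followed in every tissue and genotype. All 8 passed the filter on low counts in each fit, with between 271 and 6424 counts per library.

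Male mice, 30 in number, gave 59 libraries of polyadenylated RNA, from cortex in every animal and also from hippocampus in 29. Per the labels, the groups were wild type (Mrpl40 +/+, Slc25a1 +/+), Slc25a1 het (Mrpl40 +/+, Slc25a1 -/+), Mrpl40 het (Mrpl40 -/+, Slc25a1 +/+) and double het (Mrpl40 -/+, Slc25a1 -/+). Wild type had 9 animals in cortex and 8 in hippocampus, and every other group had 7 in each tissue. Both genes lie in the interval lost in the 22q11.2 deletion of humans, Slc25a1 coding for the mitochondrial citrate carrier and Mrpl40 for a protein of the mitochondrial ribosome. For the kind of mutation and the age, the sources used here say nothing, and each replicate is 1 animal.

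Interneurons of the forebrain use GABA and arise mostly in the ganglionic eminences of the embryo. The medial eminence gives rise to parvalbumin and somatostatin cells through the transcription factor Lhx6 and its downstream factors Sox6 and Satb1. The caudal eminence gives rise to cells that often carry Adarb2, among them vasoactive intestinal peptide and many reelin-positive neurogliaform cells.

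Most of these genes are not restricted to interneurons. Satb1 is also found in excitatory neurons of cortex, Sox6 in oligodendrocyte precursors, Pvalb in Purkinje cells of the cerebellum, and Reln in Cajal-Retzius cells and in excitatory neurons of the entorhinal cortex. In these tissue libraries, fewer cells of a type and less RNA per cell cannot be told apart.

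Library totals ranged from 21443017 to 32120906 counts. The level of Slc25a1, in CPM (counts scaled to the size of each library), formed a low band of 10.8 to 13.1 CPM and a high band of 21 to 27.3 CPM, and in 6 animals the band went against the label (wild type animals 6 and 7, Slc25a1 het animals 12 and 13, double het animals 29 and 30). Directions below therefore refer to the labels. For Mrpl40, no difference from wild type was detected in libraries labelled Mrpl40 het, with log2 fold changes of -0.04 ± 0.06 (SE) in cortex (edgeR adjusted p 0.92) and -0.00044 ± 0.05 in hippocampus (adjusted p 0.999). The counts therefore do not bear out the Mrpl40 label, and comparisons that use it rest on the label alone. Markers of the labelled regions separated the tissues: summed neocortical excitatory neuron markers (6 genes) lay at 644 to 906 CPM in cortex and 236 to 333 CPM in hippocampus, and summed hippocampal excitatory neuron markers (7 genes) at 106 to 182 CPM in cortex and 422 to 805 CPM in hippocampus.

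A pair of hippocampus libraries stood apart in markers of other regions. In Slc25a1 het animal 12 the 7 cerebellar markers summed to 497 CPM, against 4 to 21.5 CPM in the other hippocampus libraries, and the 4 basal forebrain and septal markers to 147 CPM, against 8.18 to 17.3 CPM. In wild type animal 8 the neocortical excitatory markers were the highest of any hippocampus library at 333 CPM (next 300), and the hippocampal excitatory markers were low at 431 CPM. Its thalamic markers, at 84.9 CPM, were the highest by little, with a double het library at 83.8 CPM. In animal 12 the hippocampal excitatory markers were the lowest of any hippocampus library at 422 CPM. Animal 8 also had the lowest general excitatory markers (5838 CPM, next 7391) and the highest oligodendrocyte markers (4700 CPM). The results of the members in hippocampus are given with these 2 libraries, and many of them also without. For Lhx6, Sox6, Adarb2 and Reln the size of the wild-type tissue difference is given only with them.

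In wild-type mice all 8 genes differed between hippocampus and cortex, 7 lower and 1 higher in hippocampus. Pvalb showed the greatest fall, 3.35-fold, and Adarb2 the only rise, 3.06-fold. The background is high, because 60.6% of the 21351 genes tested differed between these tissues (edgeR's quasi-likelihood test with the animal as a block and Benjamini-Hochberg adjusted p under 0.05), 30.4% being higher and 30.1% lower in hippocampus, so that the count of members alone says little, and their direction and size are described below. The median log2 fold change was -0.64 for the 8 members and 0.0064 for all genes tested.

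**Figure D1:**
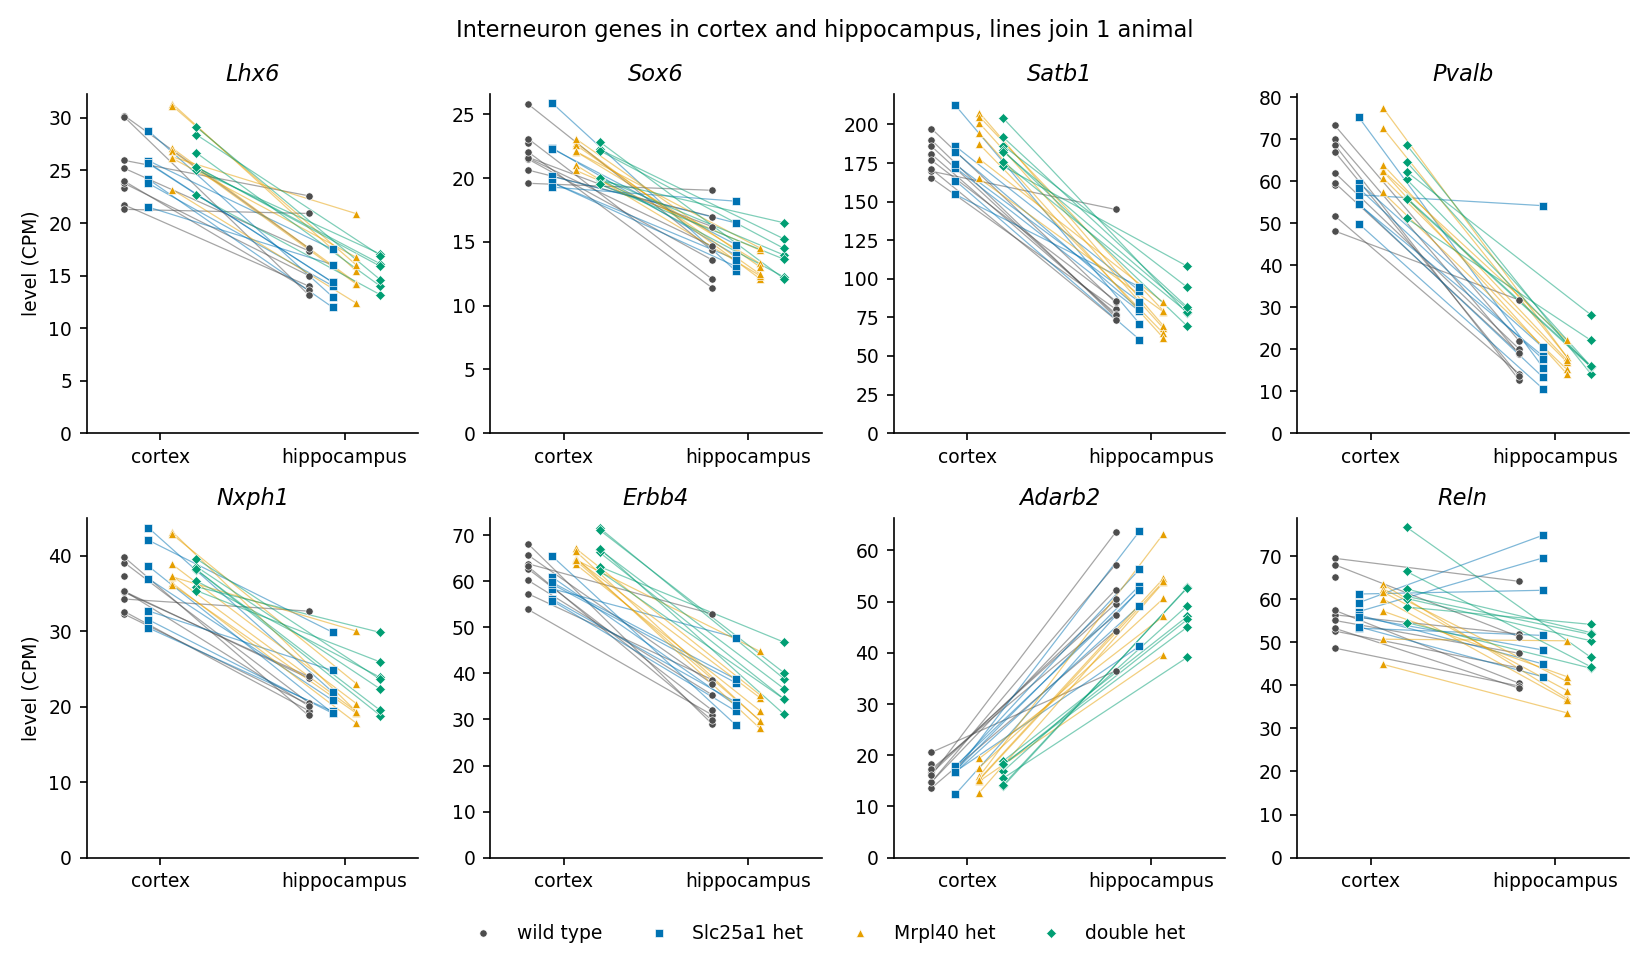
Level of each gene in CPM (vertical axis, from 0) in cortex and hippocampus, 1 panel per gene. Points are libraries, coloured and shaped by labelled genotype, and lines join the tissues of 1 animal. Of the 29 animals with both tissues, 29 of 29 lines fall for Lhx6, Sox6, Satb1, Pvalb, Nxph1 and Erbb4, 29 of 29 rise for Adarb2, and 26 of 29 fall for Reln.

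The 3 transcription and chromatin factors of the medial eminence lineage were all lower in hippocampus. Lhx6, a LIM homeodomain factor needed for migration and specification of these cells, ranged in cortex from 21.3 CPM over a median of 25.7 to 31.4 CPM (30 libraries). In hippocampus it ranged from 12.0 over a median of 15.0 to 22.6 CPM (29 libraries), and 1 hippocampus library, wild type animal 2, lay within the cortex range. Its wild-type log2 fold change was -0.60 ± 0.09 (SE, edgeR adjusted p 1.2e-06), with a median ratio of hippocampus to cortex within animals of 0.583.

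Sox6, an SRY-box factor that acts after Lhx6 in positioning and maturation, showed a difference of like size without overlap between tissues. Its levels were 19.3 to 25.9 CPM in cortex with a median of 21.9, and 11.4 to 19.0 CPM in hippocampus with a median of 13.9. The wild-type log2 fold change was -0.58 ± 0.09 (edgeR adjusted p 6.1e-07). Oligodendrocyte precursor markers (6 genes), other cells with Sox6, summed to 124 to 166 CPM in cortex and 134 to 200 CPM in hippocampus, overlapping ranges, and their part in the Sox6 values was not tested.

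Satb1, a chromatin organiser required for maturation of medial eminence cells, was the most abundant member in CPM. Cortex libraries held 155 to 212 CPM around a median of 182, and hippocampus libraries 60.6 to 145 CPM around a median of 79.0. The tissues did not overlap, although wild type animal 8, at 145 CPM, stood well above the next wild-type hippocampus library at 85.8 CPM. The wild-type log2 fold change was -1.07 ± 0.10 (edgeR adjusted p 6.6e-10), and -1.20 ± 0.09 without the 2 libraries that stood apart.

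Pvalb codes for parvalbumin, the calcium buffer that names fast-spiking basket and chandelier cells. In cortex it ranged from 48.1 to 77.5 CPM with a median of 60.6. In hippocampus the median was 17.4 CPM, the lowest library had 10.6 CPM, and the highest, Slc25a1 het animal 12, had 54.2 CPM. That library was the only hippocampus library within the cortex range for Pvalb, and the next highest was wild type animal 8 at 31.7 CPM.

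The wild-type log2 fold change of Pvalb was -1.75 ± 0.19 (edgeR adjusted p 9.2e-09), which is 3.35-fold lower in hippocampus. With the 2 libraries left out, it was -1.92 ± 0.12 in wild type and -1.89 ± 0.13 in Slc25a1 het, where it had been -1.62 ± 0.20 with them. The part of the cerebellar markers in the level of animal 12 was not tested. Among those markers, Gabra6, a receptor subunit of cerebellar granule cells, reached 66.2 CPM in hippocampus labelled Slc25a1 het and at most 1.93 CPM in the other hippocampus groups.

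**Figure D2:**
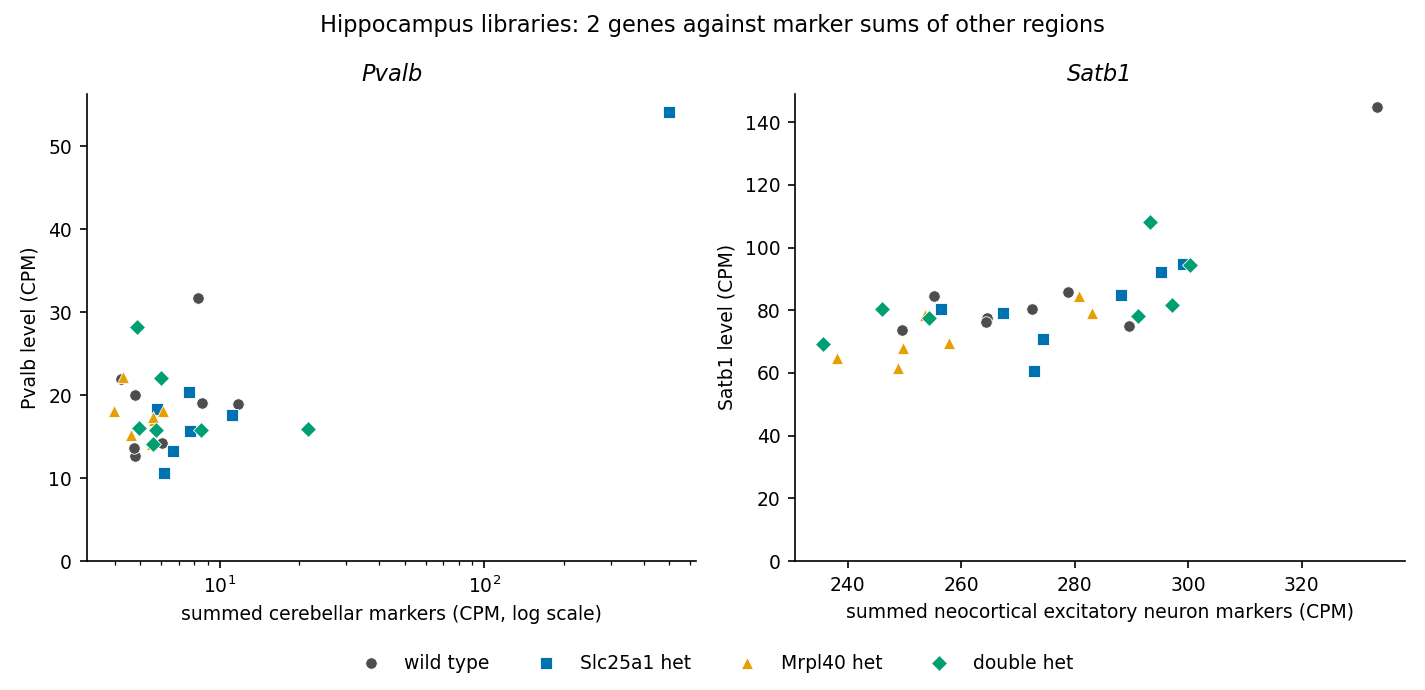
The 29 hippocampus libraries, coloured and shaped by labelled genotype. Left, Pvalb in CPM against the summed level of 7 cerebellar markers (CPM, log scale), with Slc25a1 het animal 12 alone at 497 and 54.2 CPM. Right, Satb1 in CPM against the summed level of 6 neocortical excitatory neuron markers (CPM), with wild type animal 8 alone at 333 and 145 CPM.

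Nxph1 and Erbb4 are expressed across many medial eminence cells. Nxph1 codes for neurexophilin 1, a secreted ligand of alpha-neurexins, and ranged from 30.5 to 43.7 CPM in cortex (median 37.1) and from 17.8 to 32.7 CPM in hippocampus (median 20.5). Only wild type animal 8, the highest hippocampus library, lay within the cortex range. The wild-type log2 fold change was -0.67 ± 0.09 (edgeR adjusted p 4.2e-07), and -0.77 ± 0.09 without the 2 libraries.

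Erbb4 codes for the receptor tyrosine kinase that binds neuregulins on interneurons and guides their migration and synapses. Cortex held 53.9 to 71.6 CPM (median 63.7) and hippocampus 28.1 to 52.9 CPM (median 34.5), with no overlap. The highest hippocampus value again came from wild type animal 8. The wild-type log2 fold change was -0.81 ± 0.09 (edgeR adjusted p 6.6e-09), and -0.89 ± 0.09 without the 2 libraries.

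Adarb2, which codes for a brain protein related to RNA-editing enzymes and marks caudal eminence cells, moved in the opposite direction. Cortex libraries held 12.4 to 20.6 CPM (median 16.7) and hippocampus libraries 36.5 to 63.8 CPM (median 50.6), so that the tissues did not overlap. Every one of the 29 animals had more Adarb2 in hippocampus, by a ratio between 1.77 and 4.24. The wild-type log2 fold change was 1.61 ± 0.11 (edgeR adjusted p 2.5e-13), a 3.06-fold higher level, and the lowest hippocampus value, 36.5 CPM, belonged to wild type animal 8. Which cells carried the Adarb2 counts, interneurons or others, was not tested.

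Reln codes for reelin, the secreted glycoprotein that orders cortical layers in development and is made in the adult by several interneuron types. Its tissue difference was the smallest of the 8 in wild type, where its log2 fold change was -0.29 ± 0.08 (edgeR adjusted p 0.0019). Cortex ranged from 44.9 to 76.7 CPM (median 57.8) and hippocampus from 33.6 to 74.8 CPM (median 46.5), and 16 hippocampus libraries lay within the cortex range.

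The markers of Cajal-Retzius cells (4 genes), another source of reelin, were higher in hippocampus, and their part in the Reln tissue difference was not tested. They summed to 0.498 to 1.43 CPM in cortex and 4.75 to 20.4 CPM in hippocampus. In wild-type hippocampus 4 of 4 passed as higher, where 30.4% of all genes did, among them Trp73 (3.79 ± 0.18) and Ebf3 (1.35 ± 0.21) on the log2 scale. Lhx5, a defining factor of these cells, was at 0 in every wild-type cortex library. The highest sum, 20.4 CPM (next 10.6), came from Slc25a1 het animal 12, which also had the most Reln of any hippocampus library. That library also held 497 CPM of cerebellar markers (next 21.5), whose part in its Cajal-Retzius sum and its Reln level was not tested.

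The 2 genes with the greatest tissue differences in opposite directions were Pvalb and Adarb2, and the 250 bases before their transcription starts are shown because those windows can be set side by side. They come from RefSeq on GRCm38.p6, whereas the counts were made on GRCm39, and capitals mark matches on either strand to the E-box CANNTG and the homeodomain core TAAT. The Pvalb window is chr15:78206401-78206650 on the minus strand, and the Adarb2 window is chr13:8202616-8202865 on the plus strand.
Pvalb: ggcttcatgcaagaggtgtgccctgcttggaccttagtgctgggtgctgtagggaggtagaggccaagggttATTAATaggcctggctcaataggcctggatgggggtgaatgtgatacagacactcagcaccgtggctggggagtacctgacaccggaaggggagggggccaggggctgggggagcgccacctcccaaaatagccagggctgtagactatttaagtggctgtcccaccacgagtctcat
Adarb2: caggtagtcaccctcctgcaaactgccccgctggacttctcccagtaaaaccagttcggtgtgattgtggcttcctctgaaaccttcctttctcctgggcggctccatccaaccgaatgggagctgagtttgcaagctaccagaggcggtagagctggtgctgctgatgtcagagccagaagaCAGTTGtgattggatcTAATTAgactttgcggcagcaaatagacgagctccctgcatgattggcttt

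The Pvalb window held no E-box and a pair of overlapping TAAT matches, which began 178 and 176 bases before the start. The Adarb2 window held 1 E-box 67 bases before the start and a pair of overlapping TAAT matches at 51 and 49 bases. Of 32851 RefSeq windows of this length, 66.2% held an E-box match and 54.9% a TAAT match. Such matches describe the letters of the window and not binding.

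Per kilobase of exon, levels can be compared between genes. Median cortex levels were 58.2 CPM per kb for Pvalb, 9.58 for Satb1, 7.81 for Nxph1, 5.35 for Lhx6, 5.16 for Erbb4, 2.43 for Reln, 1.47 for Sox6 and 1.27 for Adarb2. The ranges over libraries overlapped for the neighbours Satb1 and Nxph1, Nxph1 and Lhx6, Lhx6 and Erbb4, and Sox6 and Adarb2, and were separate for Pvalb and Satb1, Erbb4 and Reln, and Reln and Sox6. In hippocampus the median of Pvalb was 16.7 CPM per kb, and Adarb2, at 3.86, had a higher median than Lhx6 (3.12), Erbb4 (2.79), Reln (1.96) and Sox6 (0.940). Its range over libraries overlapped those of Lhx6, Erbb4 and Reln and was separate from that of Sox6. Exon lengths were taken from GENCODE vM21, in which Satb1 has 19027 exonic bases and Pvalb 1041, so that the order depends on which transcripts are used.

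The tissue pattern was present in each labelled genotype. The members that passed numbered 7 of 8 in Slc25a1 het (60.4% of all genes), 8 of 8 in Mrpl40 het (60.3%) and 8 of 8 in double het (57.5%), and Adarb2 was the higher one each time. Reln in Slc25a1 het was the exception, at -0.04 ± 0.08 (edgeR adjusted p 0.70), with a 95% interval of -0.20 to 0.12 on the log2 scale. Hippocampus exceeded cortex for Reln in 3 of the 7 Slc25a1 het animals, numbers 10, 12 and 16, and in no animal of the other groups. Without the 2 libraries that stood apart, the counts were again 8, 7, 8 and 8, and Reln in Slc25a1 het stood at -0.10 ± 0.09.

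**Figure D3:**
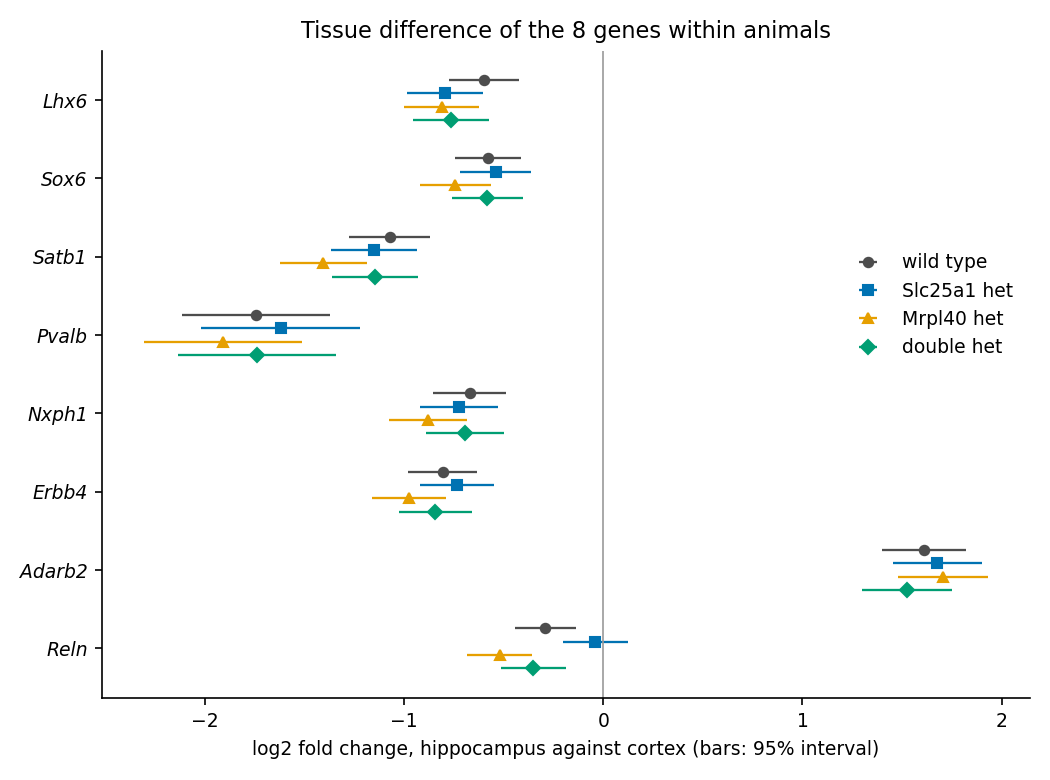
Log2 fold change of hippocampus against cortex (horizontal axis) for each gene in each labelled genotype, fitted with the animal as a block. Points are estimates and bars are 95% intervals. Adarb2 lies between 1.52 and 1.71, Pvalb between -1.91 and -1.62, and the Reln interval crosses 0 only in Slc25a1 het.

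Whether these tissue differences changed with genotype was tested directly. By edgeR, 0 of 8 members passed for Slc25a1 het (0% of all genes), for Mrpl40 het (0%) and for double het (0.0234%), and DESeq2 called 0 of 8 in each. At an unadjusted p under 0.05 there was 1 member for Slc25a1 het, Reln at 0.25 ± 0.11 (adjusted p 0.82), against 5.99% of all genes. For Mrpl40 het there was also 1, Satb1 at -0.33 ± 0.15 (adjusted p 0.83), against 5.83%, and for double het 0 against 5.03%. When the 2 libraries were left out, these differences were 0.17 ± 0.12 for Reln and -0.22 ± 0.12 for Satb1.

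Within cortex, the heterozygous labels left the 8 genes close to wild type. Median log2 fold changes of the members were 0.05 in double het, -0.03 in Slc25a1 het and 0.07 in Mrpl40 het, beside medians of all genes between -0.0034 and -0.00043. By edgeR, 0 of 8 passed in Slc25a1 het, where 0% of 20394 genes did. In Mrpl40 het 0 of 8 passed against 0.0294% of all genes (0.0245% higher), and in double het 0 of 8 against 0.0686% (0.0196% higher and 0.049% lower). DESeq2 called 0 of 8 in each. The 95% intervals of the 24 member differences all lay between -0.26 and 0.27.

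Erbb4 had the smallest p of the members in cortex. It lay at 53.9 to 68.2 CPM in wild type (median 63.2), 55.8 to 65.5 CPM in Slc25a1 het (59.4), 63.7 to 67.1 CPM in Mrpl40 het (64.8) and 62.2 to 71.6 CPM in double het (66.9). The ranges of all 4 groups overlapped in part, the Slc25a1 het libraries lying lowest by median and the double het libraries highest. Against wild type, double het differed by 0.10 ± 0.04 (unadjusted p 0.012, edgeR adjusted p 0.31), and by 0.06 ± 0.04 without the 6 animals named above for their Slc25a1 level.

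Double het against Slc25a1 het gave a wider gap for Erbb4. The log2 fold change was 0.17 ± 0.04, a 1.12-fold higher level in double het, with an edgeR adjusted p of 0.10, so that 0 of 8 members passed (0.0588% of all genes, 0.0245% higher). DESeq2 gave 0.17 ± 0.04 with an adjusted p of 0.034 and so called 1 of 8, where it called 73 of 16440 genes. Without the 6 animals edgeR gave 0.17 ± 0.04 with an adjusted p of 0.41. Against Mrpl40 het, 0 of 8 passed by edgeR (0.0049% of all genes), with 0 members at an unadjusted p under 0.05 against 6.94% of all genes. DESeq2 also called 0 of 8 there, and 13 of 18021 genes.

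Beside Erbb4, 1 member reached an unadjusted p under 0.05 in cortex against wild type, Nxph1 in Mrpl40 het, where 6.94% of all genes did. Its levels were 36.2 to 43.2 CPM (median 37.4) in Mrpl40 het and 32.3 to 39.8 CPM (35.3) in wild type, overlapping ranges that differed by 0.12 ± 0.06 on the log2 scale (edgeR adjusted p 0.71). In double het the share of all genes at that level was 10.9% (1 member, Erbb4), in double het against Slc25a1 het 9.92% (1 member, Erbb4), and in Slc25a1 het 3.17% with 0 members. Pvalb in cortex had medians of 62.0 CPM in wild type, 60.4 in double het, 56.7 in Slc25a1 het and 62.5 in Mrpl40 het, with overlapping ranges throughout.

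**Figure D4:**
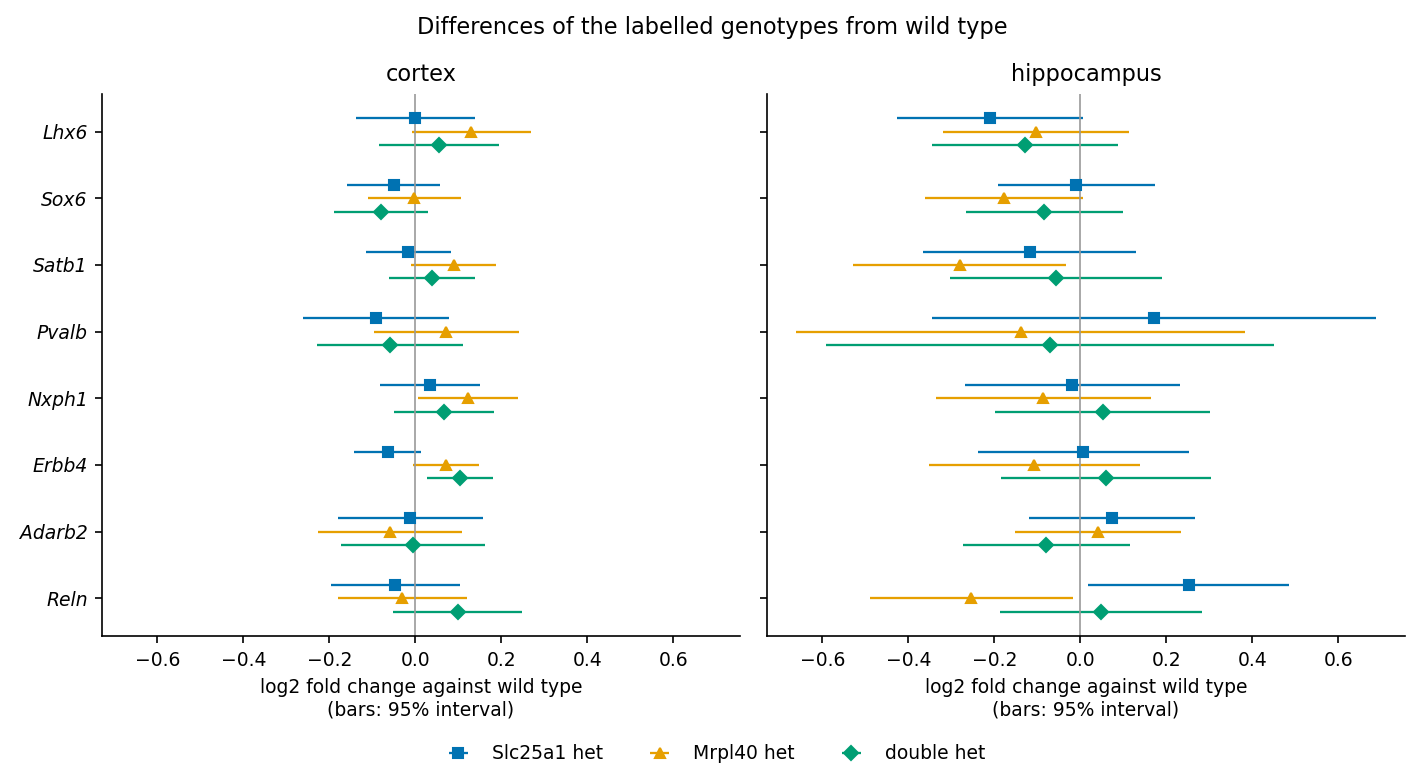
Log2 fold change of each labelled genotype against wild type (horizontal axis) for each gene, in cortex (left) and hippocampus (right). Points are edgeR estimates and bars are 95% intervals. Cortex intervals lie between -0.26 and 0.27, and the widest hippocampus intervals are those of Pvalb, from -0.66 to 0.69.

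In hippocampus the spread was wider, and 0 of 8 members passed by edgeR in Slc25a1 het, where 0% of 20162 genes did. The same count held for Mrpl40 het (0.00496% of all genes) and double het (0.00992%). DESeq2 called 0 of 8 in each. Member medians were -0.06 in double het, -0.0011 in Slc25a1 het and -0.12 in Mrpl40 het on the log2 scale, beside medians of all genes between -0.007 and 0.0045. Without the 2 libraries that stood apart the member medians were 0.07 in double het, 0.06 in Slc25a1 het and -0.03 in Mrpl40 het. Leaving Pvalb aside, the 95% intervals of the other members lay between -0.53 and 0.48.

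Reln in hippocampus lay at 39.3 to 64.1 CPM in wild type (median 45.7), 42.0 to 74.8 CPM in Slc25a1 het (51.6), 33.6 to 50.3 CPM in Mrpl40 het (38.8) and 44.0 to 54.1 CPM in double het (50.3). All of these ranges overlapped. Against wild type the log2 fold change was 0.25 ± 0.12 in Slc25a1 het (edgeR adjusted p 0.62) and -0.25 ± 0.12 in Mrpl40 het (adjusted p 0.60).

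Double het lay above Mrpl40 het for Reln by 0.30 ± 0.12 on the log2 scale, again short of the threshold (unadjusted p 0.022, edgeR adjusted p 0.96). After leaving out the 2 libraries, the difference in Slc25a1 het was 0.18 ± 0.12 and that in Mrpl40 het -0.24 ± 0.12. The Cajal-Retzius marker sum was 6.85 to 20.4 CPM in Slc25a1 het (median 8.14) and 6.16 to 10.6 CPM in Mrpl40 het (7.13), and its part in the Reln values was not tested. The 20.4 CPM is that of animal 12, the library with the high cerebellar markers.

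Satb1 in hippocampus was 73.6 to 145 CPM in wild type (median 78.9), 60.6 to 94.8 CPM in Slc25a1 het (80.3), 61.6 to 84.7 CPM in Mrpl40 het (69.5) and 69.3 to 108 CPM in double het (80.4). The groups overlapped, and Mrpl40 het had the lowest median. Against wild type it differed in Mrpl40 het by -0.28 ± 0.13 (edgeR adjusted p 0.59), and -0.14 ± 0.09 without the 2 libraries, the wild-type one of which held the highest Satb1 level.

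Pvalb in hippocampus had medians of 19.0 CPM in wild type, 15.9 in double het, 17.6 in Slc25a1 het and 17.4 in Mrpl40 het. Its log2 fold change in Slc25a1 het was 0.17 ± 0.26 with the library of animal 12 at 54.2 CPM (edgeR adjusted p 0.91). Without the 2 libraries it was -0.11 ± 0.17 (adjusted p 0.88), so that its sign rests on them. Unadjusted p under 0.05 was reached by 1 member in Slc25a1 het (7.77% of all genes), 2 in Mrpl40 het (8.19%), 0 in double het (5.28%), 0 in double het against Slc25a1 het (9.04%) and 1 in double het against Mrpl40 het (4.68%). Between double het and either single het, 0 of 8 passed by edgeR, where 0% of all genes did in each. DESeq2 also called 0 of 8 in each. Over all genes DESeq2 called 14 of 20162 against Slc25a1 het and 0 of 20162 against Mrpl40 het.

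The study's title asks about interaction between the 2 mitochondrial genes, and this was fitted as the departure of double het from the sum of both single differences on the log2 scale. By edgeR 0 of 8 members passed in cortex (0% of all genes) and 0 of 8 in hippocampus (0%). At an unadjusted p under 0.05 there were 0 members in either tissue (5.35% and 3.39% of all genes). DESeq2 called 0 of 8 members in each. The members' interaction values ran from -0.09 to 0.18 in cortex, where Reln was highest at 0.18 ± 0.11. In hippocampus they ran from -0.19 to 0.34, where Satb1 was highest at 0.34 ± 0.18. Once the 2 libraries that stood apart were dropped, they ran from -0.19 to 0.20, and Satb1 stood at 0.20 ± 0.14.

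How the 8 genes varied together was examined over libraries of 1 tissue with the genotype means removed. The share of pairs passing among all genes was not computed in either tissue. The counts of pairs therefore describe these libraries, which differ in depth and in markers of other regions, and no more. In cortex, 13 of 28 pairs passed an adjusted permutation p of 0.05, and 5 of 28 did without the 2 libraries farthest from the median of the first gene. Among Lhx6, Sox6, Satb1 and Pvalb, 6 of 6 pairs passed in cortex, and 3 of them did without those 2 libraries. In hippocampus 1 of the same 6 pairs passed. Satb1 and Pvalb had a Pearson r of 0.77 (rho 0.81, n = 30, permutation p 1e-05, the smallest the permutations can give, adjusted p 0.00028), and 0.71 without those 2. Lhx6 with Satb1 had an r of 0.59 (rho 0.49, permutation p 0.00055, adjusted p 0.0039), and 0.66 without 2. Sox6 with Satb1 had an r of 0.65 (rho 0.64, permutation p 6e-05, adjusted p 0.00084), and 0.51 without 2. Nxph1 had an r of 0.01 with Sox6, 0.07 with Satb1 and 0.22 with Pvalb, none of which passed. Some pairs outside these genes did pass: Erbb4 had an r of 0.52 with Sox6 and 0.42 with Lhx6, and Nxph1 0.44 with Lhx6. Their adjusted permutation p values were 0.014, 0.043 and 0.039, and without 2 libraries none of them passed.

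Adarb2 and Reln ran against Pvalb in cortex. Pvalb with Reln had an r of -0.57 (rho -0.60, permutation p 0.0009, adjusted p 0.005), and -0.54 without 2. Pvalb with Adarb2 had an r of -0.52 (rho -0.40, permutation p 0.0029, adjusted p 0.014), and this fell to -0.29 without the 2 farthest libraries (adjusted p 0.27), so that it rests on them. Leaving out the 6 animals named above for Slc25a1, 6 of 28 pairs passed, with Satb1 and Pvalb at 0.72 and Pvalb and Reln at -0.66.

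In hippocampus a different set of pairs led, and 13 of 28 passed, 10 of these again without the 2 farthest libraries. Without the 2 libraries that stood apart, 12 of 28 passed. Nxph1 with Erbb4 had an r of 0.89 (rho 0.79, n = 29, permutation p 1e-05, adjusted p 9.3e-05), and 0.85 without the 2 that stood apart. Lhx6 with Nxph1 had an r of 0.78 (rho 0.80, permutation p 1e-05, adjusted p 9.3e-05), and Sox6 with Erbb4 an r of 0.77 (rho 0.76, permutation p 1e-05, adjusted p 9.3e-05). Reln varied with Sox6 at an r of 0.62 (rho 0.67, permutation p 0.0004, adjusted p 0.0016, and 0.61 without the 2 farthest). Pvalb with Adarb2 had an r of -0.67 (rho -0.51, permutation p 0.00014, adjusted p 0.00065), and -0.50 without the 2 that stood apart.

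Some pairs differed in value between the tissues, a difference that was not itself tested. Satb1 with Pvalb had an r of 0.27 in hippocampus (rho 0.21, permutation p 0.15, adjusted p 0.19), and 0.04 without the 2 libraries that stood apart. Pvalb with Reln had an r of 0.35 (rho 0.20, permutation p 0.059, adjusted p 0.088), and 0.04 without them.

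**Figure D5:**
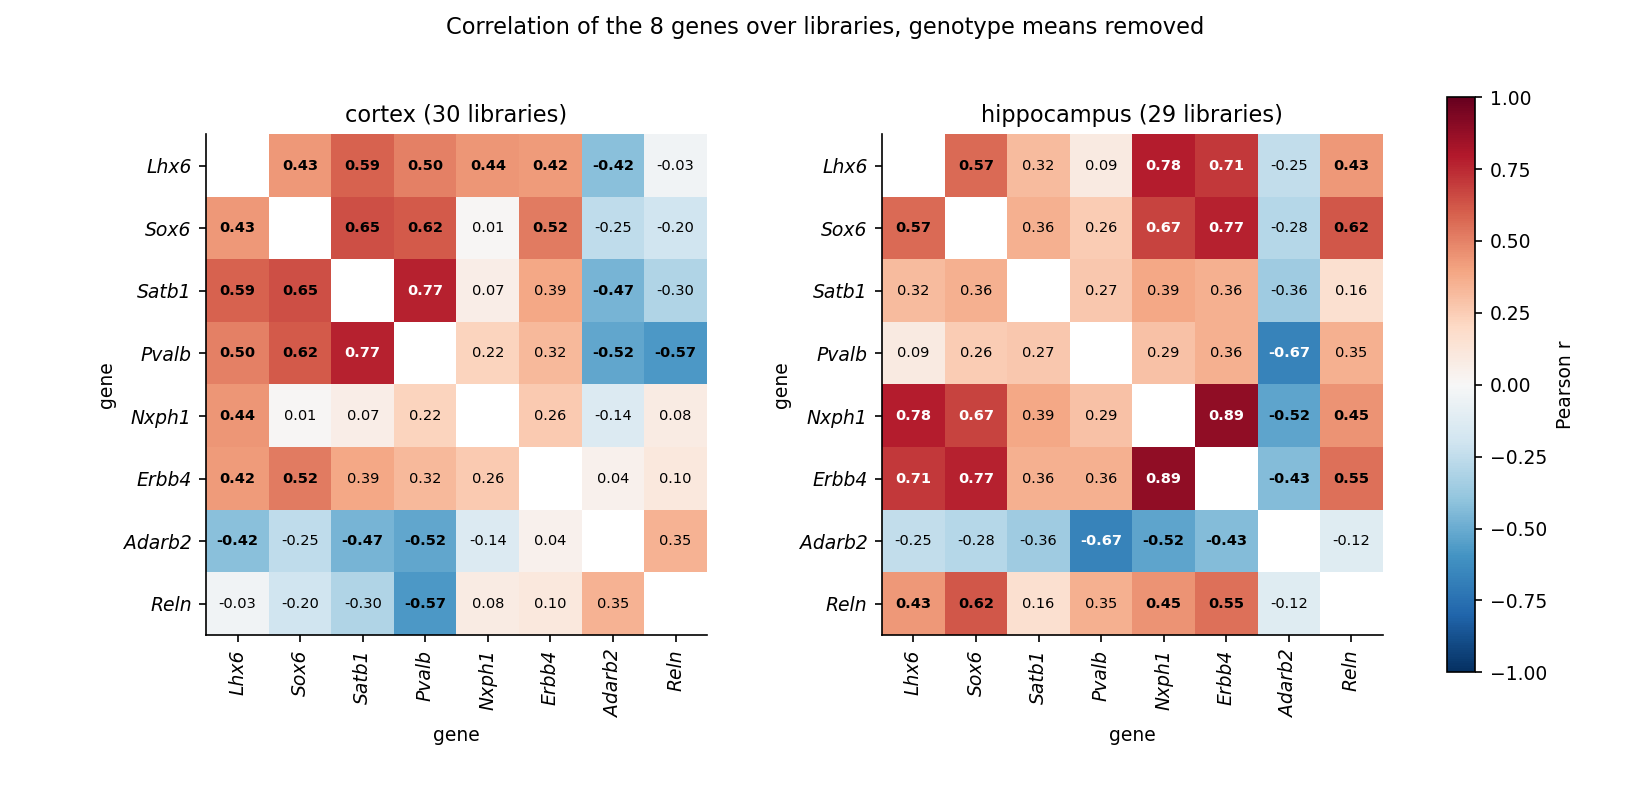
Pearson r between each pair of the 8 genes over 30 cortex libraries (left) and 29 hippocampus libraries (right), on log2 CPM with genotype means removed. Red is positive, blue negative, and bold type marks an adjusted permutation p under 0.05. Lhx6, Sox6, Satb1 and Pvalb form a red block in cortex, where Erbb4 is also positive with each of them, from 0.32 to 0.52. In hippocampus Nxph1 with Erbb4 has the highest value, 0.89.

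No relation of an animal's level in 1 tissue to its level in the other passed the test. Over the 29 animals with both tissues, 0 of 8 members passed, with r between -0.44 for Sox6 (rho -0.35, permutation p 0.019, adjusted p 0.15, and -0.43 without the 2 farthest animals) and 0.35 for Reln (rho 0.36, permutation p 0.061, adjusted p 0.24, and 0.36 without 2).

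Other genes of the same lineages give the setting for the tissue pattern in wild type. Of 10 pan-GABAergic genes tested, 8 fell and 1 rose in hippocampus, with a median log2 fold change of -0.60. Over all genes tested, 30.1% fell and 30.4% rose. Slc32a1, the vesicular GABA transporter, fell by 0.83 and the homeobox gene Dlx6 by 0.79, while Dlx6os1 rose by 0.35. Summed over the 10 genes, cortex held 944 to 1225 CPM and hippocampus 760.1 to 1068 CPM, overlapping ranges.

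Of 15 other medial eminence genes, 13 fell and 2 rose, with a median of -1.07, where 30.1% of all genes fell and 30.4% rose. Syt2, a synaptotagmin of fast-spiking terminals, fell by 1.79 and Pthlh, a parathyroid hormone-like peptide, by 1.60, while Nos1, the neuronal nitric oxide synthase, rose by 1.95 on the log2 scale. Of 15 caudal eminence genes, 8 rose and 6 fell, with a median of 0.46, beside the same shares of all genes. Prox1 rose by 4.30 and Ndnf by 2.04, whereas Lamp5 fell by 2.64 and Vip, the peptide of a main caudal eminence class, by 2.23. Which cells carried the counts of these genes, interneurons or others, was not tested.

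Prox1 is also a known marker of dentate granule cells, whose part in its rise was not tested. Its level went from 10.7 to 12.8 CPM in wild-type cortex to 167 to 272 CPM in wild-type hippocampus. In the genotype comparisons, 0 genes of the pan-GABAergic, medial and caudal eminence lists passed in either tissue. The lists' medians in hippocampus labelled Mrpl40 het were -0.12, -0.15 and -0.09, beside -0.007 for all genes, with 10 of 10, 10 of 14 and 14 of 15 genes below 0, where 52.9% of all genes were. Leaving the 2 libraries that stood apart out, the medians were -0.08, -0.09 and -0.15, and the counts were again 10, 10 and 14, where 51.9% of all genes were below 0. Double het shares that hippocampus wild-type group, and its medians were -0.04, 0.03 and -0.02, and without the 2 libraries -0.0042, 0.07 and -0.06.

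Partners of 3 members were followed as well. The shares called in their lists lay near the 60.6% of all genes called between the tissues, so that the counts are given as a description. Of 9 reelin pathway genes, 4 rose and 2 fell in wild-type hippocampus, among them the adaptor Dab1 at 0.34 ± 0.05 and the kinase Fyn at 0.36 ± 0.03, in the opposite direction to Reln, while Rapgef1 fell by 0.31. Of 10 neuregulin and ErbB genes, 1 rose and 5 fell. The Erbb4 ligand Nrg1 fell by 1.81 and Nrg3 by 0.33, and Nrg2 rose by 0.46.

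Of 6 neurexophilin and neurexin genes, 0 rose and 4 fell, led by Nrxn3, a receptor of the family that neurexophilins bind, at -0.85 ± 0.08. Nxph2, a relative of Nxph1, stood at -0.50 ± 0.19, and at -0.35 ± 0.19 with an edgeR adjusted p of 0.13 without the 6 animals. In the genotype comparisons against wild type, 0 genes of these 3 lists passed in either tissue.

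The genes most like each member over all 59 libraries, with the mean of each tissue and genotype removed, were named by Pearson r among 12746 genes, as a description. For Pvalb these were Ank1 (0.89), Syt2 (0.86) and Cntn2 (0.81), and without the 2 libraries that stood apart their values were 0.78, 0.83 and 0.83. For Nxph1 they were Impact (0.82), Slc32a1 (0.81) and Fgf12 (0.80), and for Erbb4 they were Gabra3 (0.86), Cxxc4 (0.80) and 9330182L06Rik (0.80).

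For Satb1 they were Vwc2l (0.81), Stmn1 (0.80) and Fut9 (0.80), which stood at 0.71, 0.68 and 0.68 without the 2 libraries. Lhx6 had Hrh3 (0.73), Adgra1 (0.71) and Rassf5 (0.70), and Sox6 had Cxxc4 (0.75), Dusp26 (0.72) and the member Erbb4 (0.71). For Adarb2 they were Stxbp6 (0.81), Ppfia2 (0.74) and Gabra4 (0.72). For Reln they were Fchsd2 (0.68), Fat1 (0.67) and Dner (0.64). Without the 2 libraries Ptprt (0.68) and Grin3a (0.67) led for Reln, and Cacna2d2 (0.74, from 0.54 with them) led for Lhx6. These libraries differ in depth and in markers of other regions, so that r describes them and no more.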

How the data were processed

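Poly(A) RNA of mouse cortex and hippocampus was sequenced in 59 libraries, paired-end and from a strand-marking kit per the labels' protocols. The authors deposited raw counts per gene, and a second table of normalized counts, a signal scaled by 1 factor per library. FastQC, HISAT2, featureCounts and DESeq2, and the builds mm39 and GRCm39, are named per the submitters' processing notes. No versions and no strand setting of the counting are stated in the sources used here.

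Groups came from the labels. The 8 genes, the gene lists and the tests were chosen with earlier results of these data known. Counts were fitted in R 4.3.3 with edgeR 4.0.16 (TMM, filter on low counts, robust quasi-likelihood test), all genotypes of a tissue together, at a false discovery rate of 0.05 over all genes tested. Tissues were compared with the animal as a block, the pairing coming from the animal numbers of the labels: deviations of 1 animal's tissues correlated with a median r of 0.11, against -0.01 for different animals. CPM values use TMM, and log2 CPM a prior count of 2. Intervals are 95%, from the SE by the normal quantile, and are therefore narrower than the quasi-likelihood test implies. An interval can so exclude 0 where the unadjusted p lies above 0.05. Correlations used 100000 permutations (two-sided, scipy 1.17.1). In each list, the genes named are the 2 greatest rises and 2 greatest falls among those passing whose mean log2 CPM was 0 or more. The 3 most similar genes were sought where the mean log2 CPM was 2 or more. Exon lengths came from GENCODE vM21. DESeq2 1.42.0, limma 3.58.1, other filters and left-out libraries were alternatives. Scripts were tested on simulated data. Promoter windows were read from RefSeq tables (GRCm38.p6), where all 8 genes matched, and protein sequences were not used here. Figures used matplotlib 3.10.9. The value of 1 gene that the naming rule picks is not reported here.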

Additional observations from a re-analysis of the deposited data

Results flagged for a closer look

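A library far from the others of its group, by the gap to its neighbour relative to the group's range, was found in 7 of 64 combinations of gene and group, where chance marks about 1 in 20. For 3 of them the library was hippocampus of wild type animal 8, which held the highest Satb1 (144.9 CPM, next 85.8), Erbb4 (52.92 CPM, next 38.6) and Nxph1 (32.68 CPM, next 24.0) of its group. In hippocampus labelled Slc25a1 het, animal 12 held 54.15 CPM of Pvalb, and the next library 20.4 CPM. In hippocampus labelled Mrpl40 het, animal 22 held 30.03 CPM of Nxph1, and the next library 23.1 CPM. In cortex labelled Slc25a1 het, animal 13 held the highest Pvalb (75.18 CPM, next 59.6) and the lowest Adarb2 (12.37 CPM, next 16.7). Of all cortex libraries, that library had the highest oligodendrocyte marker sum (4114 CPM, next 3883). It also had the lowest sums of the caudal eminence genes (753 CPM, next 768) and the hippocampal excitatory markers (106 CPM, next 118). Their part in its Pvalb and Adarb2 levels, and in the cortex correlations, was not tested.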

How the results depend on the processing

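Counts of members that passed were recomputed under each alternative, and single values likewise: of the recomputed single values 560 stayed on the same side of their threshold or within the spread, 23 lost it, 1 gained it, 3 moved and 2 turned sign. Both are Pvalb in hippocampus, Slc25a1 het against wild type, at a log2 fold change of 0.17, which was -0.33 without the 6 animals with Slc25a1 levels opposite to their labels and -0.11 without the 2 hippocampus libraries that stood apart. Both settings leave out animal 12. The counts of members called between tissues were 8 in wild type, 8 in Mrpl40 het, 8 in double het and 7 in Slc25a1 het under every alternative run. In cortex, double het against Slc25a1 het, the DESeq2 Wald test called 1 member (Erbb4) in place of 0, and the cause was not tested. Over all genes DESeq2 called 73 of 16440 there, and edgeR 12 of 20394. Of 28 member pairs in cortex, 13 correlated, but 6 did without those 6 animals and 5 without the 2 libraries farthest from the median, with fewer samples in both. The labels do not state that a replicate number pairs animals of different genotypes, and what a shared number stands for is not given. With the replicate number as a block, 0 members passed in each genotype comparison, and the pairs of cortex libraries with the same number correlated with a median r of 0.13 (range -0.41 to 0.54), against -0.03 for different numbers. That fit keeps only replicates 1 to 7, and over all genes the count for cortex double het was 4 in it and 14 without it. Without the animal block between tissues, 8, 7, 8 and 8 members passed as before. Nxph2, Calb1 and Pafah1b1 lost their tissue call without the 6 animals. The fits without the 2 hippocampus libraries, and CPM without TMM, were chosen after seeing the data.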

Other observations

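Relatives of the 8 genes were also measured. In wild-type hippocampus against cortex, of 7 relatives tested, 1 rose and 5 fell by edgeR, where 30.4% of all genes rose and 30.1% fell. Sox5, the relative of Sox6 that acts in deep-layer projection neurons, fell by 0.76 ± 0.16 (SE) on the log2 scale. Calb1, which codes for the calcium buffer calbindin, rose by 0.36 ± 0.13, a call lost without the 6 animals with Slc25a1 levels opposite to their labels (edgeR adjusted p 0.082).

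The 6 activity-dependent immediate early genes were all lower in wild-type hippocampus, with Fos at -3.50 ± 0.19 and Egr1 at -3.34 ± 0.21 on the log2 scale. Of all genes tested, 30.1% passed as lower there. Their summed level ranged from 699 to 2585 CPM over the cortex libraries and from 164 to 399 CPM over the hippocampus libraries.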
